A study of Sus scrofa with 12 samples.

Results

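The transcripts described here encode proteins of the spliceosome, the machine that removes introns from pre-mRNA, in porcine oocytes during in vitro maturation (IVM). Members were chosen by symbol: every gene whose pig symbol starts with SNRP, SF3A, SF3B, PRPF, SRSF or U2AF, together with LSM1 to LSM8 and SNU13. The rule found 46 genes among the 31908 Ensembl identifiers listed in each library. Of these, 45 are described here and counted below as the members, and 37 of them had a mean of at least 1 FPKM and were tested. The study asked how the metabolome and transcriptome of oocytes change from the germinal vesicle stage to the metaphase II arrest. Cumulus-oocyte complexes were aspirated from antral follicles of prepubertal gilts and cultured in maturation medium that held follicular fluid, EGF, PMSG and HCG. Oocytes were taken at 0h, 22h and 46h of IVM, stripped of cumulus cells with hyaluronidase and pipetting, and lysed in pools of 20, with 4 libraries for each stage and 12 in all. The stages differ in culture time, with no other treatment named, and oocytes at 0h had not been cultured.

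The spliceosome is built anew on each intron from small nuclear ribonucleoproteins (snRNPs), each made of a snRNA and its proteins. Sm proteins form a ring on the U1, U2, U4 and U5 snRNAs, and LSM proteins form a similar ring on the U6 snRNA. U2AF and the SF3A and SF3B complexes define the 3′ splice site and the branch point, PRPF factors make up and activate the tri-snRNP, and SR proteins (the SRSF genes) bind exons and recruit the rest. Fully grown oocytes hardly transcribe, and their stored mRNAs are known to be held with short poly(A) tails, lengthened and translated, or degraded as meiosis resumes.

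All 12 oocyte markers matched in the files were found in the libraries, and their summed level was 14262 to 20857 FPKM in the 0h libraries, 17995 to 26072 in those of 22h and 4689 to 8537 in those of 46h. Of 15 cumulus and granulosa cell markers, 3 (LHCGR, INHA and KRT18) were listed at 0 in every library, and the summed level of the list was 5.99 to 17.4 FPKM in the 0h libraries, 6.4 to 8.33 in those of 22h and 7.16 to 13.1 in those of 46h, of which STAR and FST made up most. The share of FPKM from the mitochondrial genome's protein genes was 1.79% to 3.76% in the 0h libraries, 8.06% to 12.02% in those of 22h and 12.8% to 16.7% in those of 46h. The part of the marker sums in the results was not tested. With the mitochondrial genes removed and values rescaled as TPM, 107 of the 111 tests of members kept their call, and those that did not were SNRPA1 and U2AF1 at 22h against 0h and SF3A3 at 46h against 0h, each newly called higher, and PRPF3 at 46h against 22h, no longer called. The number of reads per library is unknown, since FPKM (fragments scaled by how long a transcript is and how many fragments its library gave) carries no counts. A lower value of a pool can mean fewer oocytes with the transcript or less of it per oocyte, and these cannot be told apart. No source says that the 4 libraries of a stage came from separate animals or cultures, so p-values measure the spread between these libraries, which may be technical.

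Over the whole of maturation, spliceosome transcripts moved in both directions, and more of them fell than rose. At 46h against 0h, 18 members were lower and 4 were higher with an adjusted p under 0.05 and a fold change over 1.5 (limma on log2(FPKM + 1), Benjamini-Hochberg over 7013 genes). Those 22 are 59.5% of the members tested, whereas 55.9% of all genes tested were called in that comparison, 39.1% lower and 16.8% higher. LSM4 (-5.10 on the log2 scale), PRPF4 (-4.04), PRPF18 (-3.58) and SNU13 (-2.45) had the most negative values on that scale. SNRPA1 (0.99), SF3B6 (0.84), SRSF3 (0.61) and SRSF7 (0.59) rose. FPKM is relative to the fragments of its library, and the median number of genes at 1 FPKM or more was 7206.5 at 0h and 5948.5 at 46h. A rise per oocyte and a gain in share while other transcripts fell therefore cannot be told apart. On the log2 scale the median change was -0.57 over the members tested and -0.25 over all genes tested. With median-of-ratios scaling the members' median was -0.205, beside 0.06 over all genes, and with quantile normalization it was -0.07. Quantile normalization, which moved the median of all genes to 0.37, called 10 members higher and 14 lower, so that the share of called members that were higher went from 18.2% to 41.7%. Over all genes tested that normalization called 41.0% higher and 25.5% lower.

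Most of the falls came after 22h. At 22h against 0h, 8 members were lower and 0 were higher (limma), where 26.7% of all genes tested were called, 18.9% lower and 7.84% higher. At 46h against 22h, 17 members were lower and 2 (SF3B6 and PRPF38A) higher, where 42.4% of all genes were called, 32.6% lower and 9.87% higher. The members' median was -0.11 in the first interval and -0.505 in the second, beside -0.001 and -0.26 over all genes. SF3B3, SRSF12, PRPF18, PRPF4 and SNU13 were lower in each of the 3 comparisons, which share their libraries. With quantile normalization SF3B3 (-0.53) and SNU13 (-0.55) were no longer called at 46h against 22h. The call of SF3B6 in that interval was lost with TPM values (0.57) and without 22h replicate 3 (0.52). Another 9 members were lower only in the second interval and over both intervals together, and 11 members were called in none. At an unadjusted p under 0.05, 5 members (SNRPF, U2AF1, SNRPA1, SRSF7 and SRSF3) were higher at 22h, and SNRPA1, at 0.57 ± 0.15 (SE, adjusted p = 0.00968), passed the adjusted threshold and missed that on the fold. The count of 0 higher members in the first interval depended most on 0h replicate 4, which had the highest value of its stage for 24 of the 37 members. That library also had the highest summed level of cumulus and granulosa cell markers of all libraries, 17.39 FPKM. Its oocyte marker sum of 14262 FPKM was the lowest at 0h, and it had the most genes at 1 FPKM or more, 7895. In the cumulus and granulosa list STAR and FST made up most of the sums, and no other marker was over 0.39 FPKM in any library. The part of these values in the count was not tested. Without 0h replicate 4, 6 members (LSM5, SF3B2, SRSF7, SNRPF, SNRPA1 and U2AF1) were higher at 22h, where higher genes were 12.3% of all genes tested. Of the members, 1 (SNRPA1) was higher without 0h replicate 3 and also without 22h replicate 4, and 2 (SNRPA1 and SNRPF) were higher without 22h replicate 3. There were 2 with median-of-ratios scaling, with quantile normalization and with TPM values without mitochondrial genes (18.2%, 20% and 20% of the members called), where 9.57%, 14.9% and 11.3% of all genes tested were higher.

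**Figure D1:**
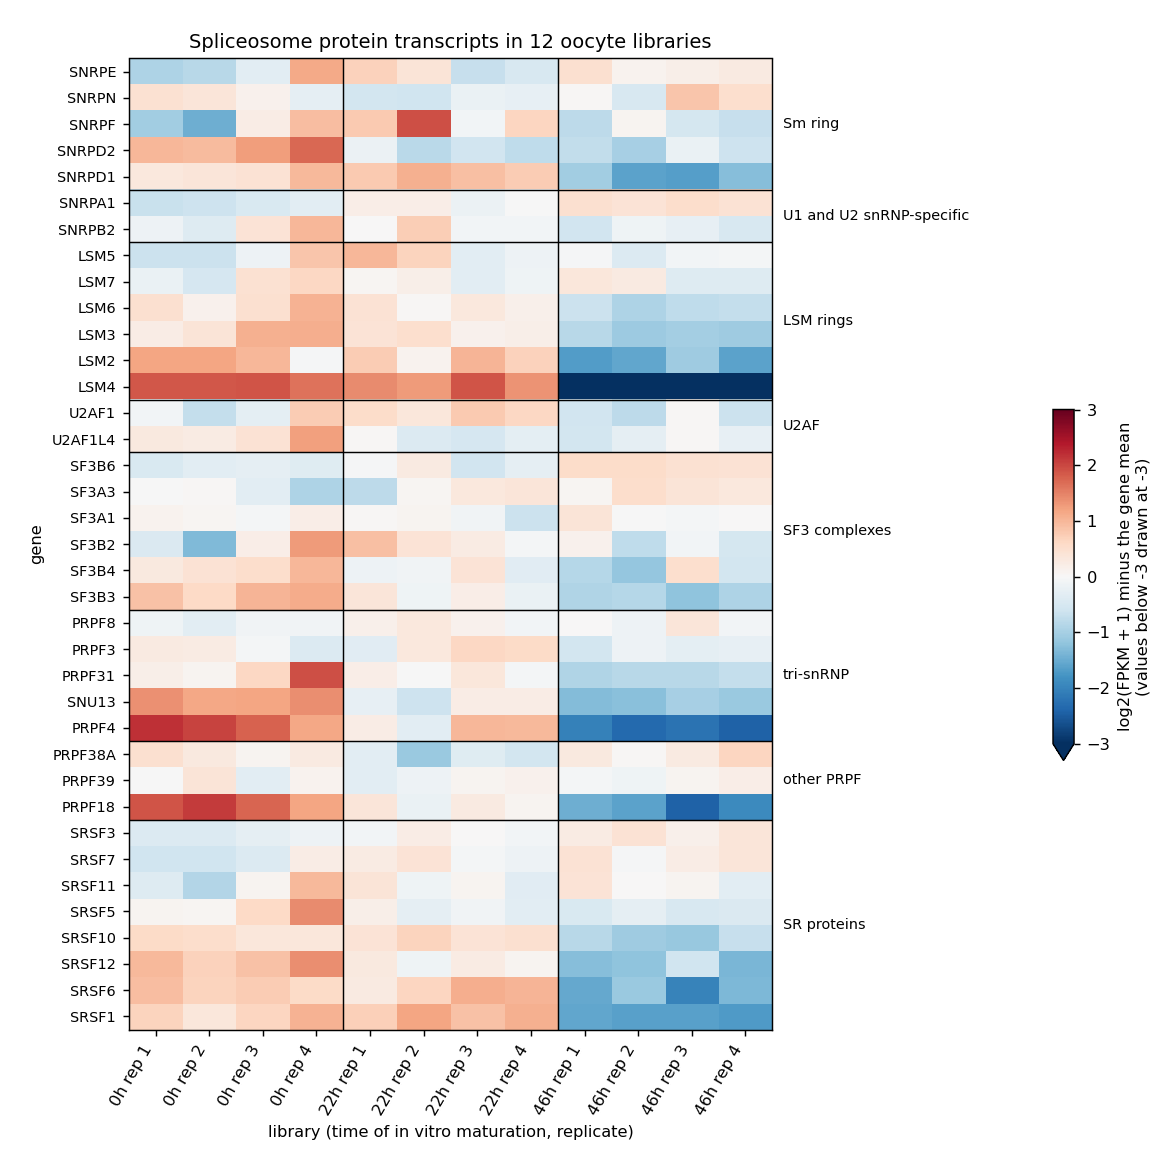
Each row is 1 of the 37 members tested and each column 1 of the 12 libraries, and the color gives log2(FPKM + 1) minus the mean of that gene, with values under -3 drawn at -3. LSM4, PRPF4 and PRPF18 are dark red at 0h and dark blue at 46h, SNRPA1, SF3B6 and SRSF3 turn faintly red at 46h, and the column of 0h replicate 4 is the reddest of its stage in 24 rows.

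**Figure D2:**
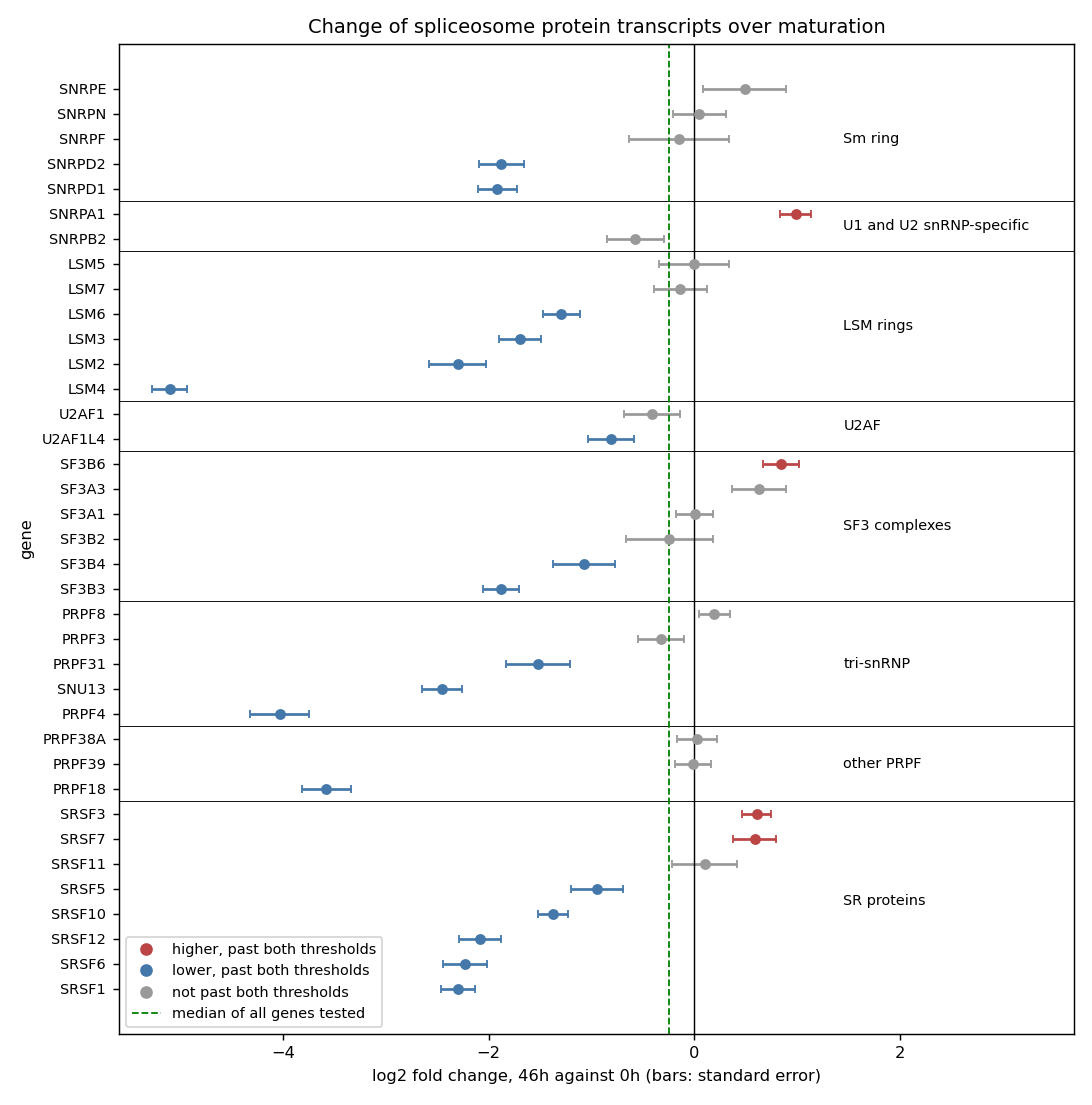
Points are log2 fold changes at 46h against 0h of the 37 members tested, bars are standard errors, rows are grouped by role, and the dashed line is the median of all genes tested (-0.25). In the LSM rings, the tri-snRNP and the SR proteins the points span from about 0 or above to -5.10, -4.04 and -2.30.

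The 4 members higher at 46h against 0h share a feature that the choice of members did not use. The cytoplasmic polyadenylation element is a U-rich signal near the 3′ end of an mRNA, bound by the CPEB proteins, and known for tail lengthening in maturing oocytes. Its usual letters, written as DNA, are TTTTAT or TTTTAAT, neither of which contains the other. They were searched on the transcript strand only, since the signal is read in RNA, in the last 100 bases of 1 RefSeq transcript per gene, where the 3′ UTR was at least that long. All 4 members that were higher at 46h against 0h held the letters. So did 2 of 15 that were lower (PRPF4 and SRSF10) and 2 of 12 that were not called (SF3A3 and SNRPE). SNRPD2, SRSF12 and SRSF6 were lower too but were left out, since the transcripts used have 83, 84 and 0 bases of 3′ UTR. Among all genes tested, 30.5% of 894 higher genes, 16.9% of 1901 lower genes and 24.9% of 2387 genes not called held them, and 17.2% of the windows of all 16352 RefSeq genes did. Of the 4 higher calls, that of SRSF3 was lost in 4 and that of SRSF7 in 6 of 22 alternative analyses. The sites of the 8 tested members with the letters are shown, each as 30 bases of RefSeq sequence (Sscrofa11.1). They run from 5′ to 3′ on the transcript strand, with the match nearest to the transcript's end in capitals.
SNRPA1: tgtttaggtttcTTTTAATtcttaataaaa
SF3B6: attaataaacctgtagctTTTTATaaaaca
SRSF3: agtgttgaattaaaTTTTATgtccacaaaa
SRSF7: gaaaatgtgggtTTTTATttggcacattta
SF3A3: gttttatctttgTTTTATattaaaaaggat
SNRPE: taaaaataaatgctttcctggtgtTTTTAT
SRSF10: tatagttaataaataacTTTTATagcatca
PRPF4: ctcaaagctgagTTTTATttggtgaatcag

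The window of SNRPA1 lies at chr1:145719239-145719268, plus strand, that of SF3B6 at chr3:114618094-114618123, plus strand, that of SRSF3 at chr7:32298623-32298652, plus strand and that of SRSF7 at chr3:101608736-101608765, plus strand. The window of SF3A3 lies at chr6:93951633-93951662, minus strand, that of SNRPE at chr9:64566978-64567007, plus strand, that of SRSF10 at chr6:81729091-81729120, minus strand and that of PRPF4 at chr1:253925654-253925683, plus strand, and all 8 are in the 3′ UTR. SF3A3 holds TTTTAT again, in lower case, at the start of its window. A polyadenylation signal (AATAAA or ATTAAA) stood in the last 100 bases of 7 of the 8, and in those of PRPF4 these letters were not found. In the last 100 bases of SF3A3, SRSF7 and SNRPA1 the element began 28, 18 and 11 bases before the signal nearest to the transcript's end. In those of SF3B6, SNRPE, SRSF10 and SRSF3 it began after that signal. The members called higher were thus split, with the match before the signal in SNRPA1 and SRSF7 and after it in SF3B6 and SRSF3. These places are of the match nearest to the transcript's end. The counts of members with the letters took no account of the place, and whether a match after the signal acts was not tested. The ATTAAA in the printed bases of SF3A3 lies further from the transcript's end than the signal used.

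On the log2 scale the median change at 46h against 0h was 0.60 in the 8 members with the letters and -0.95 in the 23 without, beside 0.08 in 1190 and -0.28 in 3992 of all genes tested. These are descriptions with no test, and a match of letters does not show that a site is bound. Of the 23 members without the letters, 13 were lower and 0 were higher at 46h in the limma fit, and also 0 were higher at an unadjusted p under 0.05. Of all genes tested without the letters, 39.6% were lower and 15.6% higher, and of those with them 27.1% were lower and 22.9% higher. With quantile normalization 5 of the 9 higher members with a 3′ UTR of that length held the letters, and PRPF39, PRPF8, SF3A1 and SRSF11 did not. At 22h against 0h, of the 6 members that were higher without 0h replicate 4, SNRPA1 and SRSF7 held the letters and LSM5, SF3B2, SNRPF and U2AF1 did not. Tail length was not measured, and the cDNA was primed with oligo-dT, so a change in the amount of a transcript and a change in the share caught by the primer cannot be told apart.

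**Figure D3:**
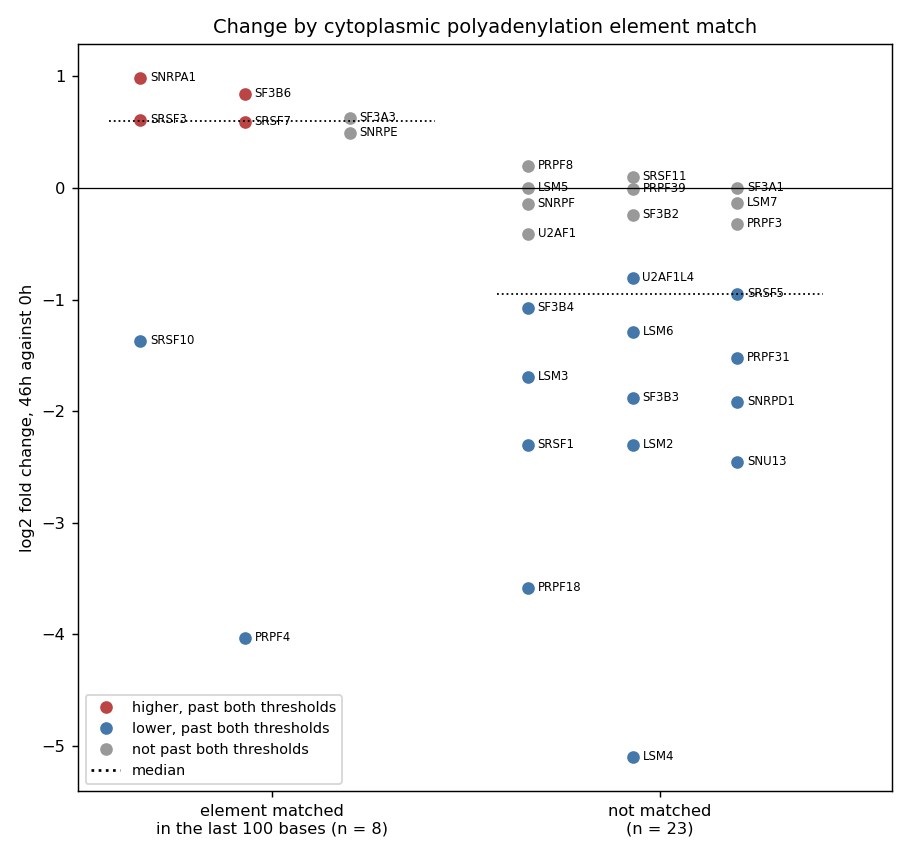
Each point is 1 of 31 members with at least 100 bases of 3′ UTR, placed by whether the last 100 bases hold TTTTAT or TTTTAAT (8 do and 23 do not), with its change on the log2 scale at 46h against 0h on the vertical axis. Dotted lines are medians (0.60 and -0.95), and all 4 members called higher stand on the left, where PRPF4 and SRSF10 are the 2 called lower.

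In the Sm ring, SNRPD1 and SNRPD2 fell and SNRPE stayed the most abundant of all members. SNRPE (chr9:64560544-64567007 on Sscrofa11.1) was at 865, 920.4, 1328 and 3621 FPKM at 0h, 2670.0, 2164, 1022 and 1187 FPKM at 22h and 2291, 1765, 1855 and 1994 FPKM at 46h. The 0h replicate 4 library lay far above the other 0h libraries, and the stages overlapped. Its change on the log2 scale at 46h against 0h was 0.49 ± 0.40 (SE, adjusted p = 0.307), and without that library it was 0.95 with an adjusted p of 0.0107 (limma). SNRPE made up 32.5 to 65.3% of the members' FPKM in the 0h libraries, 39.3 to 62.7% in those of 22h and 59.8 to 67.2% in those of 46h. The members together summed to 2661 to 5541 FPKM in the 0h libraries, 2604 to 4259 in those of 22h and 2834 to 3410.0 in those of 46h, and the stages overlapped. Without SNRPE they summed to 1776 to 1920.0 FPKM in the 0h libraries, 1484 to 1589 in those of 22h and 1069 to 1246 in those of 46h, so these sums did not overlap between stages, and 0h replicate 4 had the highest. With PRPF18 and LSM4 left out as well, the sums were 990.1 to 1421, 1187 to 1292 and 1019 to 1215 FPKM, and the stages overlapped again.

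SNRPD1, which starts ring assembly together with SNRPD2, was at 14.1, 14.6, 15.4 and 23.03 FPKM at 0h, 20.03, 24.6, 21.7 and 19.6 FPKM at 22h and 4.93, 3, 2.86 and 4.01 FPKM at 46h. All 46h libraries lay below all earlier ones, and 0h and 22h overlapped. At 46h against 22h the log2 fold change was -2.28 ± 0.19 (SE, adjusted p = 2.51e-07). SNRPD2 was at 105, 101, 125 and 172 FPKM at 0h, 45.5, 29.2, 34.5 and 29.99 FPKM at 22h and 30.6, 25.3, 44.7 and 33.1 FPKM at 46h. Here the 0h libraries were all above the later ones, and 22h and 46h overlapped. SNRPD2 fell by 22h with a log2 fold change of -1.81 ± 0.22 (SE, adjusted p = 5.71e-05), and at 46h against 22h the value was -0.06 (adjusted p = 0.83). Thus SNRPD2 fell in the first interval and SNRPD1 in the second.

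SNRPF was at 6.45, 4.48, 16.9 and 28.1 FPKM at 0h, 25.4, 56.97, 13.4 and 22.7 FPKM at 22h and 7.88, 15.1, 9.55 and 8.39 FPKM at 46h, with wide spread at 0h and 22h and overlap of all stages. It was called lower at 46h against 22h, at -1.30 ± 0.49 (SE, adjusted p = 0.0396), and that call was lost in 10 of 22 alternative analyses, among them without 22h replicate 2, where the value was -0.93. SNRPN, a relative of SNRPB found mainly in brain, was not called, with 74.6 ± 15.8 FPKM (SD, n = 4) at 0h, 49.3 ± 7.16 at 22h and 80.3 ± 30.1 at 46h. Its change at 46h against 22h was 0.62 (limma, adjusted p = 0.0568). That change was called with median-of-ratios scaling (0.975), quantile normalization (0.96), and without 46h replicate 2 (0.86) or 0h replicate 4 (0.62). Without 0h replicate 4, SNRPN was also called lower at 22h against 0h (-0.72).

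The U2 snRNP protein SNRPA1 (chr1:145707393-145719287) had the largest called rise of all members at 46h against 0h. Its values were 142, 147, 165 and 183 FPKM at 0h, 261, 261, 201 and 224 FPKM at 22h and 318, 301, 329.5 and 309 FPKM at 46h. Every 22h library lay above every 0h library, and every 46h library above both. At 46h against 0h the log2 fold change was 0.99 ± 0.15 (SE, adjusted p = 4.30e-05), a 1.98-fold higher mean, and this call held in all 22 alternatives. Its partner SNRPB2, which binds the same snRNA as a pair with SNRPA1, was at 13.1 ± 6.29 FPKM (SD, n = 4) at 0h, 11.98 ± 4.06 at 22h and 7.93 ± 1.28 at 46h, and its change of -0.57 (adjusted p = 0.0872) was not called. SNRPB2 was called lower at 46h against 0h with TPM values (-0.68) and without 0h replicate 2 (-0.78). The ratio of SNRPA1 to SNRPB2 within a library was 8.44 to 19.2 in the 0h libraries, 14.5 to 24.9 in those of 22h and 32.1 to 48.2 in those of 46h, and a ratio within a library does not depend on how libraries are scaled.

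Of the 6 LSM genes tested, 4 fell by 46h and LSM5 and LSM7 were not called. LSM4 (chr2:59499560-59513258), a subunit of both the nuclear U6 ring and the cytoplasmic ring of mRNA decay, was at 218, 216, 220.3 and 185 FPKM at 0h, 158, 144, 221 and 151 FPKM at 22h and 3.96, 5.87, 5.64 and 5.14 FPKM at 46h. At 46h all libraries were far below the rest, and 0h and 22h overlapped, with 0h replicate 4 the lowest of its stage. At 46h against 0h LSM4 changed by -5.10 ± 0.17 (SE, adjusted p = 1.77e-11) on the log2 scale, the largest change of any member there. Its mean FPKM was 40.7-fold lower. LSM2 was at 16.5, 16.6, 14.5 and 6.53 FPKM at 0h, 12.2, 7.32, 14.6 and 11.5 FPKM at 22h and 1.44, 1.63, 2.7 and 1.55 FPKM at 46h, with all 46h libraries below the others, although 0h replicate 4 stood apart from its stage. Its log2 fold change was -2.30 ± 0.27 (SE, adjusted p = 4.77e-06) at 46h against 0h. LSM3 was at 17.2, 19.1, 31.6 and 31.8 FPKM at 0h, 19.5, 21.1, 15.96 and 16.5 FPKM at 22h and 7.73, 6.24, 6.66 and 6.37 FPKM at 46h, and again the 46h libraries alone were low. It changed by -1.69 ± 0.20 (SE, adjusted p = 5.23e-06). LSM6, at low level, went from 2.06 ± 0.843 FPKM (SD, n = 4) to 0.217 ± 0.0964, a log2 fold change of -1.29 (adjusted p = 2.54e-05) that was not called with quantile normalization.

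LSM5, the most abundant LSM transcript at 46h, was not called in any comparison. It was at 103 ± 56.9 FPKM (SD, n = 4) at 0h, 138 ± 60.04 at 22h and 93.8 ± 11.1 at 46h, with a log2 fold change of -0.00 (adjusted p = 0.997) at 46h against 0h. Of the FPKM of the LSM genes, LSM5 held 20.6 to 44.8% in the 0h libraries, 24.7 to 51.99% in those of 22h and 83.03 to 87.5% in those of 46h, while LSM4 held 44.5 to 67.97%, 39.3 to 65.4% and 3.41 to 6.302%. The order of these 2 transcripts at 46h was therefore the reverse of that in 0h replicates 1 to 3. LSM7 changed by -0.13 (adjusted p = 0.671) at 46h against 0h.

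U2AF1, the small U2AF subunit that reads the AG of the 3′ splice site, fell after 22h and its relative U2AF1L4 fell before it. U2AF1 was at 140.4, 90.4, 120.3 and 255 FPKM at 0h, 217, 189, 257 and 228 FPKM at 22h and 99.6, 85.8, 151 and 95.4 FPKM at 46h. All 46h libraries lay below all 22h libraries, and 0h overlapped both. At 22h against 0h the value of 0.65 (adjusted p = 0.0833) was not called. The change on the log2 scale at 46h against 22h was -1.06 ± 0.27 (SE, adjusted p = 0.00521). U2AF1L4, under 5 FPKM throughout, was at 1.85, 1.78, 2.14 and 4.47 FPKM at 0h, 1.4, 0.75, 0.63 and 0.9 FPKM at 22h and 0.59, 0.94, 1.37 and 0.97 FPKM at 46h, and all 0h libraries were above the later ones. It fell by 22h with a log2 fold change of -0.85 ± 0.22 (SE, adjusted p = 0.00991). At 46h against 0h the call at -0.81 was lost in 3 of the 21 alternatives that tested the gene, with -0.58 without 0h replicate 4, -0.13 after quantile normalization and -0.57 after scaling by median-of-ratios.

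The SF3 complexes hold the branch point, and their subunits went different ways. SF3B3, a large scaffold subunit of SF3B, was at 9.66, 7.67, 10.7 and 11.5 FPKM at 0h, 6.42, 4.3, 5.61 and 4.05 FPKM at 22h and 2.06, 2.2, 1.48 and 2.04 FPKM at 46h. Its stages were ordered without overlap. The log2 fold changes were -0.84 ± 0.17 (SE, adjusted p = 0.00252) at 22h against 0h and -1.88 ± 0.17 (SE, adjusted p = 3.52e-07) at 46h against 0h. SF3B6 (p14), the small subunit next to the branch adenosine, was at 29.98, 33.1, 34.3 and 31.9 FPKM at 0h, 40.1, 49.7, 27.1 and 34.1 FPKM at 22h and 61.4, 61.2, 56.6 and 56.1 FPKM at 46h. All 46h libraries were above all others, and 0h and 22h overlapped. It rose by 0.84 ± 0.17 (SE, adjusted p = 0.000654) at 46h against 0h. The ratio of SF3B6 to SF3B3 within a library was 2.77 to 4.32 in the 0h libraries, 4.84 to 11.6 in those of 22h and 27.5 to 38.2 in those of 46h.

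SF3A3, the most abundant SF3 transcript, was at 138, 145, 112 and 73.1 FPKM at 0h, 81.1, 148, 176 and 180.0 FPKM at 22h and 145, 203, 185 and 174 FPKM at 46h. The 46h libraries were all above the 0h libraries, at the closest by under 1 FPKM, and the change of 0.63 ± 0.27 (SE, adjusted p = 0.0522) missed the threshold of 0.05. It passed in 8 alternatives, among them without 0h replicate 1, without 0h replicate 2 and without 46h replicate 1. SF3B4, which contacts the pre-mRNA beside the branch point, was at 1.75, 1.99, 2.2 and 3.46 FPKM at 0h, 1.02, 1.08, 1.95 and 0.75 FPKM at 22h and 0.24, 0, 2.15 and 0.52 FPKM at 46h, with 46h replicate 3 among the 0h values. It was called lower at -1.08 ± 0.30 (SE, adjusted p = 0.00608), a call lost with quantile normalization at -0.37. SF3A1 and SF3B2 were not called, at 0.00 (adjusted p = 0.988) and -0.24 (adjusted p = 0.642).

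In the tri-snRNP, PRPF4, SNU13 and PRPF31 fell while PRPF3 and PRPF8 were not called at 46h against 0h. PRPF4 (chr1:253906258-253925683), which joins PRPF3 on the U4/U6 snRNA pair, was at 45.7, 40.4, 33.9 and 21.7 FPKM at 0h, 10.8, 7.21, 19.2 and 18.9 FPKM at 22h and 1.51, 1.03, 1.18 and 0.9 FPKM at 46h. The stages did not overlap, and the 46h libraries were near 1 FPKM. PRPF4 changed by -1.32 ± 0.29 (SE, adjusted p = 0.00342) at 22h against 0h and by -4.04 ± 0.29 (SE, adjusted p = 2.22e-08) at 46h against 0h. SNU13, which binds a turn of U4 snRNA and also box C/D snoRNAs, was at 21.4, 18.4, 18.7 and 21.7 FPKM at 0h, 6.23, 4.59, 9.14 and 9.01 FPKM at 22h and 2.49, 2.6, 3.31 and 2.98 FPKM at 46h, and its stages did not overlap either. Its change on the log2 scale at 46h against 0h was -2.45 ± 0.19 (SE, adjusted p = 5.79e-08). PRPF31, which docks on SNU13 and U4, was at 1.1, 0.98, 1.84 and 6.14 FPKM at 0h, 1.14, 0.85, 1.35 and 0.78 FPKM at 22h and 0, 0.04, 0.05 and 0.13 FPKM at 46h. Every 46h value was below every earlier one, and 0h replicate 4 was high for its stage. The log2 fold change of -1.52 ± 0.31 (SE, adjusted p = 0.000632) understates the loss of a gene this low, because 1 was added to each FPKM value.

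PRPF3 was at 41.3, 41.1, 32.95 and 25.7 FPKM at 0h, 26.9, 42.9, 53.2 and 51.7 FPKM at 22h and 23.1, 30.6, 27.8 and 28.8 FPKM at 46h, and all stages overlapped. It was called lower at 46h against 22h, at -0.60 ± 0.22 (SE, adjusted p = 0.0367), but the call was lost in 11 of 22 alternatives, with values from -0.63 to -0.16. The ratio of PRPF3 to its partner PRPF4 was 0.904 to 1.19 in the 0h libraries, 2.48 to 5.94 in those of 22h and 15.3 to 32.02 in those of 46h. PRPF8, the protein at the catalytic core, was at 1.61 ± 0.189 FPKM (SD, n = 4) at 0h and 2.02 ± 0.498 at 46h, a change of 0.20 (adjusted p = 0.28).

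Among the other PRPF factors, PRPF18 was the most abundant at 0h and fell at both intervals. PRPF18 (chr10:48062229-48122222), a factor of the second step of splicing, was at 512, 591, 460.5 and 314 FPKM at 0h, 176, 120.0, 166 and 146 FPKM at 22h and 48.96, 44.4, 24.8 and 35.8 FPKM at 46h. The stages were ordered without overlap. It fell by 3.09-fold in mean FPKM by 22h and by 12.2-fold by 46h, and the log2 fold change was -3.58 ± 0.24 (SE, adjusted p = 1.10e-08) at 46h against 0h.

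PRPF38A, a factor of spliceosome activation, was the one member that fell and then rose. It was at 15.5, 13.5, 11.6 and 13.2 FPKM at 0h, 8.45, 4.46, 8.25 and 7.11 FPKM at 22h and 13.5, 11.1, 13.2 and 17.4 FPKM at 46h. The 22h libraries were below all 0h and all 46h libraries, and 0h and 46h overlapped. The log2 fold changes were -0.87 ± 0.20 (SE, adjusted p = 0.00443) at 22h against 0h and 0.89 ± 0.20 (SE, adjusted p = 0.00182) at 46h against 22h. PRPF39, a U1 partner, changed by -0.01 (adjusted p = 0.957) at 46h against 0h, and that value turned to 0.68 with quantile normalization.

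Of the 8 SR protein genes tested, 5 fell by 46h, SRSF3 and SRSF7 rose, and SRSF11 was not called. SRSF1 (chr12:34278363-34282164), the founding member of the family, was at 5.7, 4.36, 5.68 and 7.73 FPKM at 0h, 5.93, 8.58, 6.75 and 7.82 FPKM at 22h and 0.44, 0.36, 0.38 and 0.31 FPKM at 46h. The 46h libraries were all under 0.5 FPKM, and 0h and 22h overlapped. It fell by 19.5-fold in mean FPKM after 22h, with a log2 fold change of -2.58 ± 0.17 (SE, adjusted p = 1.79e-08). SRSF6 was at 16.9, 14.04, 14.9 and 12.97 FPKM at 0h, 10.4, 13.7, 19.04 and 17.96 FPKM at 22h and 2.25, 3.35, 1.36 and 2.69 FPKM at 46h, and only its 46h libraries were low. Its change on the log2 scale at 46h against 22h was -2.25 ± 0.22 (SE, adjusted p = 1.05e-06). SRSF10, a splicing repressor when dephosphorylated, went from 16.4 ± 1.56 FPKM (SD, n = 4) at 22h to 5.51 ± 0.951 at 46h, a change of -1.43 (adjusted p = 2.62e-06). SRSF12, the closest relative of SRSF10, was at 21.01, 17.1, 19.9 and 28.5 FPKM at 0h, 12.9, 9.28, 12.4 and 10.9 FPKM at 22h and 3.68, 3.89, 6.48 and 3.39 FPKM at 46h. Its stages did not overlap, so that, unlike SRSF1, SRSF6 and SRSF10, it was already lower at 22h, at -0.85 ± 0.20 (SE, adjusted p = 0.00585). SRSF5 changed by -0.95 (adjusted p = 0.00449) at 46h against 0h and was not called with quantile normalization.

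SRSF7 (chr3:101599429-101608786), the most abundant SR transcript, was at 48.4, 48.8, 55.1 and 85.8 FPKM at 0h, 87.1, 97.8, 70.7 and 66.3 FPKM at 22h and 99.3, 71.8, 86.1 and 94.9 FPKM at 46h. The 0h replicate 4 library lay within the 46h range, and the other 0h libraries lay below it. The log2 fold change of 0.59 ± 0.21 (SE, adjusted p = 0.0221) at 46h against 0h stood just past the fold threshold, and the call was lost in 6 of 22 alternatives, among them without 0h replicate 1, where it was 0.50. SRSF3, the shortest family member, went from 15.96 ± 1.42 FPKM (SD, n = 4) at 0h to 20.2 ± 2.22 at 22h and 24.9 ± 2.28 at 46h. Its change at 46h against 0h was 0.61 ± 0.14 (SE, adjusted p = 0.00183), with all 46h libraries above all 0h libraries, and the call was lost in 4 of 22 alternatives, with 0.52 as TPM and 0.56 to 0.58 without 0h replicate 1, 0h replicate 2 or 46h replicate 2. Together SRSF7 and SRSF3 made up 49.5 to 57.5% of the FPKM of the SR genes in the 0h libraries, 60.3 to 69.3% in those of 22h and 86.2 to 88.6% in those of 46h, ranges that did not overlap. The sum over the SR genes was 118 to 180.1 FPKM in the 0h libraries, 141.1 to 174.8 in those of 22h and 115 to 139.8 in those of 46h. Every 22h library lay above every 46h library in this sum.

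**Figure D4:**
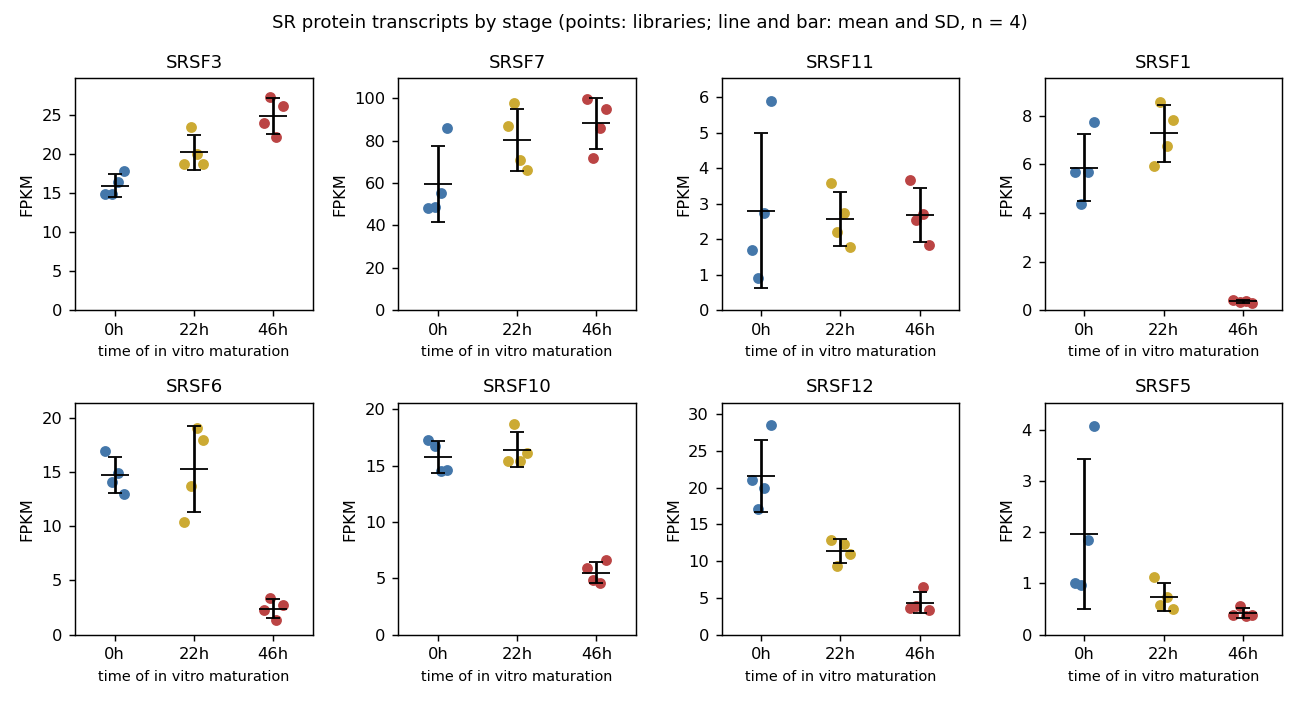
Points are FPKM values of the 8 SR protein genes tested in the 4 libraries of each stage, and lines with bars are the mean and SD. SRSF1, SRSF6 and SRSF10 hold their level to 22h and lie far lower at 46h, SRSF12 steps down at both times, and SRSF3 and SRSF7 lie higher at 46h than in most 0h libraries.

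The 8 members under the filter (LSM8, SRSF2, SRSF9, SNRPA, U2AF2, PRPF19, PRPF40B and PRPF6) were compared by an exact two-sided permutation test of 4 against 4 libraries, whose smallest possible p is 0.0286, in 24 unadjusted tests. SRSF2 was at 0.68, 0.6, 0.63 and 2.17 FPKM at 0h, 1.4, 0.45, 0.41 and 0.67 at 22h and 0.16, 0.24, 0 and 0.15 at 46h, and PRPF40B was at 0.537 ± 0.231 (SD, n = 4), 0.708 ± 0.0946 and 0.282 ± 0.0499. For both, all 46h libraries lay below all 0h and all 22h libraries (exact p = 0.0286 for each). The other 6 overlapped in every comparison. U2AF2, the large partner of U2AF1, was at 0.463 ± 0.382 FPKM (SD, n = 4) at 0h, against 151 ± 71.8 for U2AF1.

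Other genes of splicing were also lower more often than higher at 46h against 0h, where 39.1% of all genes tested were lower and 16.8% higher, and the lists were not tested against each other. That split over all genes turned with quantile normalization, as given above, and was 33.1% lower and 29.3% higher after scaling by median-of-ratios. Of 52 other snRNP and spliceosome genes tested, 26 were lower and 9 higher, and PUF60, a partner of U2AF at the 3′ splice site (-6.05), and BUD31 (-4.78) changed the most. Of 12 genes of snRNP assembly, which load the Sm ring onto snRNA, 7 were lower and 1 higher, and the largest changes were in GEMIN6 (-6.59, from 388 ± 83.2 FPKM (SD, n = 4) at 0h to 2.99 ± 0.53 at 46h) and GEMIN2 (-3.45). Of 11 SR kinases, carriers and SR-like regulators, 3 were lower and 1 higher, with CLK4 at -3.29 and DYRK1A at -3.07. Of 18 hnRNP genes, 8 were lower and 2 higher, with HNRNPH3 at -2.15 and RALY at -1.62. Of 7 exon junction complex genes, 2 were lower (EIF4A3 at -1.16 and SAP18 at -0.995) and the other 5 were not called. The 2 named in each list are those with the largest change past both thresholds.

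Some of these values can hold reads of other genes. In RefSeq, 9 of the 44 members placed on a chromosome overlap another protein-coding gene, among them LSM3 (with XPC), SNRPF (CCDC38), U2AF1L4 (IGFLR1 and PSENEN), PRPF31 (TFPT) and PRPF4 (CDC26 and RNF183). The library kit does not mark strand, so reads of such pairs cannot be told apart. The Sm and LSM genes are short and have processed copies in mammalian genomes, and their levels are uncertain for that reason.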

How the data were processed

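SMART-Seq2 libraries of 20 denuded oocytes were primed with oligo-dT and sequenced as paired ends. The authors checked reads with FastQC 0.11.9, trimmed them with Trim Galore 0.6.4, aligned them to Sscrofa11 with STAR 2.7.6a and deposited FPKM values per Ensembl gene from RSEM 1.3.3. Counts from HTSeq, which the authors also made, were not used here. The annotation release is not given in the sources used here. The depth per library is unknown, so the spread over 4 libraries is the measure of precision. The series' design text gives another hour for the middle time point than the sample labels, and the 22h of the labels was used.

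Of 31908 identifiers, 15029 were named by RefSeq (Sscrofa11.1) and 137 more by the study's supplementary table, which was at hand in part. SNRPB, SNRPD3, SNRPG, SNRPC, LSM1, SF3A2, SF3B1, SF3B5, PRPF38B, PRPF4B, SRSF4 and SRSF8 had no identifier matched and were not analysed here. SNRPN was not placed on a chromosome. Another member that the rule found stayed in the fit and is not reported here or counted among the members.

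Values were taken as log2(FPKM + 1), which understates changes of low genes. A mean of 1 FPKM or more over the 12 libraries left 7013 genes, which were fitted with limma 3.58.1 (lmFit, eBayes with trend, R 4.3.3), with stage as the only factor. P-values are two-sided and were adjusted after Benjamini-Hochberg over all 7013 genes, and a call needed an adjusted p under 0.05 and a fold change over 1.5. Both thresholds follow the study, whose count test could not be run on FPKM. Ratios of means are on the FPKM scale. The 8 members under the filter had exact permutation tests over 70 arrangements. On simulated data with 200 changed genes the fit called 166 of them, and 7 unchanged genes, at 46h against 0h. There the noise was independent between genes, no shift was shared by a library, and genes of low level were left unchanged. These counts therefore do not give the error rate in the real data.

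In each role group, values in all libraries are given for up to 3 called members with the largest change at 46h against 0h and for the most abundant, and other members by stage means. The members, the lists of other genes and the markers were chosen with earlier results of these data known. The transcript ends were read from RefSeq with pysam 0.24.0, taking 1 curated or else the longest transcript per gene, and sequences and positions are RefSeq's on Sscrofa11.1, while the files hold no coordinates. Alternatives were a pseudocount of 0.1, quantile normalization, scaling by median-of-ratios, TPM values (also with mitochondrial genes removed), no filter or one at 5 FPKM, eBayes with no trend, a separate fit per pair of stages, a replicate block, and leaving out each library. The search over any transcript of a gene, and over each of these alternatives, was added after seeing the data. Figures were drawn with matplotlib 3.10.9.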

Additional observations from a re-analysis of the deposited data

Results flagged for a closer look

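Outlying libraries were sought on the scale of log2(FPKM + 1), and the values printed are FPKM. In 9 of 135 groups of 4 libraries, 1 library stood apart from the other 3 by more than Dixon's 95% critical value. Chance alone marks about 1 in 20 groups. In 0h replicate 4, LSM2 was at 6.53 FPKM and LSM4 at 185 FPKM, each below the other 0h libraries, and SRSF2 was at 2.17 FPKM, above them. In 46h replicate 2, LSM5 was at 77.3 FPKM, below its stage, and SRSF5 at 0.56 FPKM and PRPF19 at 0.2 FPKM, above it. SNRPA was at 1.38 FPKM in 46h replicate 3 and SNRPB2 at 18 FPKM in 22h replicate 2, both above their stage. PRPF8 was at 1.33 FPKM in 0h replicate 2, below the others. The falls of LSM2 and LSM4 by 46h were called with each of the 12 libraries left out. No explanation was tested.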

How the results depend on the processing

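Over 22 alternatives, 36 of the 49 calls of members were kept in every alternative that tested the gene: 8 of 8 at 22h against 0h, 12 of 19 at 46h against 22h and 16 of 22 at 46h against 0h. The lower counts ranged from 8 to 9, 15 to 17 and 17 to 19 as single libraries were left out, and the higher counts from 0 to 6, 1 to 3 and 3 to 5, with the 1 at 46h against 22h coming without 22h replicate 3. The count of higher members at 22h against 0h was 2 with median-of-ratios scaling, 2 with quantile normalization and 2 with TPM without mitochondrially encoded genes, against 0. At 46h against 22h median-of-ratios scaling gave 5 higher, and quantile normalization 7 higher and 11 lower, against 2 and 17, so the share of called members that were higher went from 10.5% to 25% and 38.9%, and TPM gave 1 higher. Of all genes tested, 9.87% were higher there, and 20.2% after median-of-ratios, 28.1% after quantile normalization and 7.49% as TPM. Lower genes were 32.6% of all genes tested there, and 19.1% after quantile normalization. At 46h against 0h quantile normalization gave 10 higher and TPM 2 higher, against 4, where 41.0%, 14.3% and 16.8% of all genes tested were higher. PRPF39 at 46h against 0h went from -0.01, not called, to 0.68, called higher, with quantile normalization. The cause of these moves was not tested. The median of all genes at 46h against 0h was -0.25, and 0.06 with median-of-ratios scaling, 0.37 with quantile normalization and -0.35 with TPM.

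Replicate numbers were not taken to pair the libraries, since no source says that they mark a shared batch and not every pair's correlation was over 0.1. At 46h against 22h all 4 correlations were positive. Correlations of the deviations of same-numbered libraries ran from -0.466 to 0.0823 (22h against 0h), 0.00884 to 0.381 (46h against 22h) and -0.281 to 0.0845 (46h against 0h), and 0, 6 and 1 of 8 libraries correlated best with their own number. With the replicate block, 0 members were higher and 8 lower at 22h against 0h, 2 and 15 at 46h against 22h (SNRPF at -1.30 and PRPF3 at -0.60 were no longer called), and 4 and 18 at 46h against 0h. Exact tests with 1 library left out cannot go below 0.0571, so they say nothing on stability. With any transcript of a gene, the letters of the element were found in 4 of 4 higher and 3 of 15 lower members, beside 36.6% of higher and 20.9% of lower genes over all genes tested.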
